A study of Homo sapiens with 2 samples.

Results

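The splicing regulators described here are the SR proteins, the hnRNPs and the numbered RBM genes, with TRA2A, TRA2B, SRRM1 and PTBP1. Members were all genes whose only platform gene symbol was SRSF, HNRNP or RBM followed by digits or letters, RBM counting only with digits next, plus those 4 genes. This gave 70 genes of the 19775 on the array: 10 SRSF genes, 21 hnRNPs with PTBP1 counted among them, 36 RBM genes, and TRA2A, TRA2B and SRRM1. They were measured on 2 arrays. One array held RNA of RKO, an established line of human colon cancer cells, infected with a retrovirus whose hairpin targets BCLAF1-L (sh-BCLAF1-L). The other held RNA of RKO cells infected with the control virus (sh-Luci). Both cultures were selected with puromycin at 2 µg/ml as stable lines, and 1 hairpin against BCLAF1 was profiled. Each group had 1 array, so no spread between cultures exists, no p-value is given, and every difference compares these arrays. In bulk RNA, a difference in the number of cells of a type and one in RNA per cell cannot be told apart.

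SR proteins carry RNA recognition motifs and a tail rich in arginine and serine, bind exonic enhancers and favour the use of nearby splice sites. hnRNPs coat nascent transcripts, and many of them, such as HNRNPA1 and PTBP1, repress exons, so that the balance between both families helps to set which exons are kept. Many SR and hnRNP genes also limit their own mRNA through alternative exons that lead to decay. BCLAF1 is a nuclear protein with an arginine and serine rich region that is found with splicing factors, and the comparison asks whether the mRNAs of the regulators themselves differed after its knockdown.

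The targeted gene read 945 on the sh-BCLAF1-L array and 2505 on the sh-Luci array on its brightest probe set, a log2 difference of -1.41, and all 6 BCLAF1 probe sets were lower. Median intensities of the arrays were 84.5 for sh-BCLAF1-L and 82.7 for sh-Luci. The 3' to 5' ratio of ACTB, which gauges RNA integrity and labelling, was 3.81 on the sh-BCLAF1-L array and 3.41 on the sh-Luci array, and the 18 biotin spike-in probe sets had a median difference of 0.20. Their part in the results was not tested. Among markers of the cells, the epithelial EPCAM, KRT8 and KRT18 read 472, 97.6 and 674 with sh-BCLAF1-L, against 477, 96.0 and 979 with sh-Luci, and the mesenchymal VIM read 453 with sh-BCLAF1-L and 378 with sh-Luci. The intestinal markers CDX2, VIL1 and KRT20 lay between 14.6 and 77.3 with sh-BCLAF1-L and between 15.6 and 67.4 with sh-Luci. In mean, CDX2 and VIL1 were just above the limit used below, an intensity of 63.7, and KRT20 was under it. CDH1, also under it, read 35.6 with sh-BCLAF1-L and 24.6 with sh-Luci. Of the blood, endothelial and fibroblast markers, 7 of 8 had a probe set, with readings of 43.3 to 397 with sh-BCLAF1-L and 39.8 to 355 with sh-Luci.

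Splicing regulators, like most genes on the arrays, differed little between them. A gene took the value of its brightest probe set, a difference is log2(intensity + 1) of sh-BCLAF1-L minus that of sh-Luci, and a gene counted as detected when its mean log2 value was at or above the 40th percentile over probe sets, an intensity of 63.7. That limit is a percentile and no detection call. Of the 70 members, 64 were detected, and none of them differed by 1.5-fold in either direction. Over the 14507 detected genes, 0.434% were 1.5-fold or more higher and 0.2% were that much lower. With shares so low, the absence of such members does not set the splicing regulators apart. At 1.2-fold, 1 member was higher (HNRNPA1), against 6.86% of all detected genes. At least 1.2-fold lower were 5 members (RBM3, HNRNPA3P1, HNRNPAB, SRSF8 and RBM22), or 7.81% of the 64, against 4.26% of all detected genes. With both arrays centred on their median difference of 0.026, the shares over all detected genes were 5.40% higher and 5.73% lower, and HNRNPR joined the 5.

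The members lay slightly to the lower side. Their median difference was -0.034 on the log2 scale (quartiles -0.11 and 0.035), against 0.019 over all detected genes. Differences below 0 were found for 38 of the 64 (59.4%), against 45% of all detected genes. The median was -0.056 for the 9 detected SR proteins (0.047 when probe sets with _s_at and _x_at names, which may match several transcripts, were left out), -0.035 for the 21 hnRNPs and -0.0086 for the 31 detected RBM genes. The 0.047 covers fewer genes, because SRSF5 and SRSF6 have only probe sets with such names and dropped out. Probe sets of the same gene disagreed with a pooled SD of 0.16 over 6752 genes and of 0.14 over the 52 members with at least 2 detected probe sets, which is the only error these arrays give for a single gene. Many members gave bright signals, which vary less. Among genes with a brightest probe set at or above the 90th percentile of intensity (657), 1 of 46 members was at least 1.2-fold higher against 3.46% of such genes, and 4 of 46 were at least 1.2-fold lower against 2.47%.

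**Figure D1:**
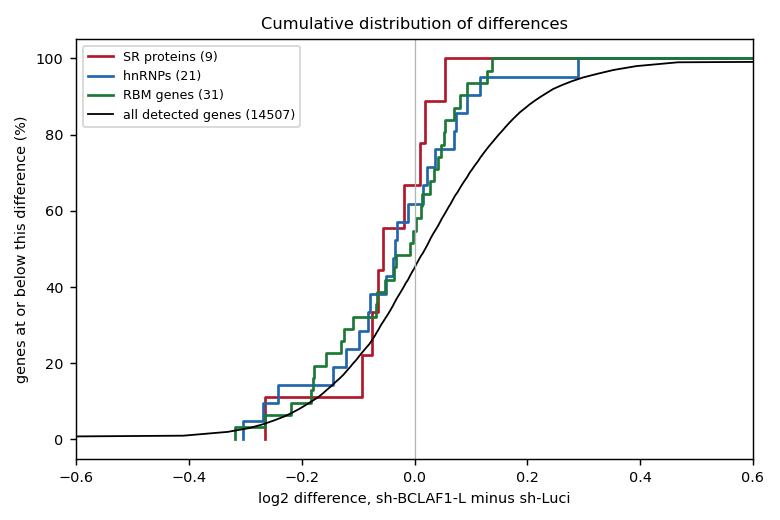
Cumulative distribution of the log2 difference (sh-BCLAF1-L minus sh-Luci, x axis) as the percentage of genes at or below it (y axis), for 9 SR proteins, 21 hnRNPs, 31 RBM genes and all 14507 detected genes. At differences of 0 and above, the curves of the members lie above the black curve of all genes, with medians of -0.056, -0.035 and -0.0086 against 0.019.

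SRSF10, an SR protein that represses splicing when it is dephosphorylated in heat shock and mitosis, read 1123 with sh-BCLAF1-L and 1199 with sh-Luci on its brightest probe set. The difference was -0.094. Its next probe set went the other way, with 1135 with sh-BCLAF1-L and 1005 with sh-Luci, and the remaining 3 differed by -0.092, 0.0022 and -0.16. The 5 probe sets of SRSF10 therefore spanned 0 and gave no common direction.

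The other 8 detected SR proteins had brightest probe sets that differed by -0.27 to 0.054. SRSF1, the founding member that binds purine-rich enhancers, read 2316 with sh-BCLAF1-L and 2409 with sh-Luci, and 5 of its 8 probe sets were lower. SRSF3, the smallest of the family, read 5756 with sh-BCLAF1-L and 6067 with sh-Luci. SRSF7, which carries a zinc knuckle, read 3109 with sh-BCLAF1-L and 3149.6 with sh-Luci. The differences of these 3 genes were -0.056, -0.076 and -0.019, none near 1.2-fold.

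SRSF4, SRSF5 and SRSF6 are close relatives with a pair of RNA recognition motifs each. SRSF4 read 1602 with sh-BCLAF1-L and 1581 with sh-Luci, but 2 of its 3 detected probe sets were lower, by -0.12 and -0.25. SRSF5 read 1566 with sh-BCLAF1-L and 1508 with sh-Luci, and again 2 of its 3 detected probe sets were lower, by -0.020 and -0.21. SRSF6 read 1667 with sh-BCLAF1-L and 1743 with sh-Luci and was, of the 9 detected SR protein members, the only one lower on each of its detected probe sets, with differences of -0.064 and -0.20. SRSF11 read 3107 with sh-BCLAF1-L and 3086 with sh-Luci.

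SRSF8, a paralogue of SRSF2, had the lowest difference of the detected SR protein members, at 991 with sh-BCLAF1-L and 1192 with sh-Luci, a difference of -0.27 or 1.203-fold. That probe set has a name of the type given to probes that may match several transcripts. Its other 3 probe sets differed by 0.085, 0.16 and -0.14, and without the first one the gene's difference was 0.085. SRSF12, a relative of SRSF10, was not detected and read 23.8 with sh-BCLAF1-L and 29.5 with sh-Luci, a difference of -0.30.

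SRSF2 and SRSF9 have no probe set with a single symbol and are not among the 70 members. The 3 detected probe sets that the annotation gives to SRSF2 together with the microRNA gene MIR636 differed by -0.23, -0.20 and -0.19, with 3106 with sh-BCLAF1-L and 3560 with sh-Luci on the brightest. The 2 probe sets given to SRSF9 and its neighbour GATC differed by -0.071 and -0.11. HNRNPH2, which shares its probe set with a readthrough gene, read 2423 with sh-BCLAF1-L and 2308 with sh-Luci.

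TRA2A and TRA2B are the human homologues of the Drosophila splicing factor transformer-2 and bind GAA-rich enhancers. TRA2B read 3661 with sh-BCLAF1-L and 3867 with sh-Luci, and its 3 detected probe sets were lower, with differences of -0.079 to -0.18. TRA2A read 769 with sh-BCLAF1-L and 869 with sh-Luci, a difference of -0.18, whereas its other 3 detected probe sets were between 0.026 and 0.10. SRRM1, a splicing coactivator of the nuclear matrix, read 2005 with sh-BCLAF1-L and 1963 with sh-Luci.

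**Figure D2:**
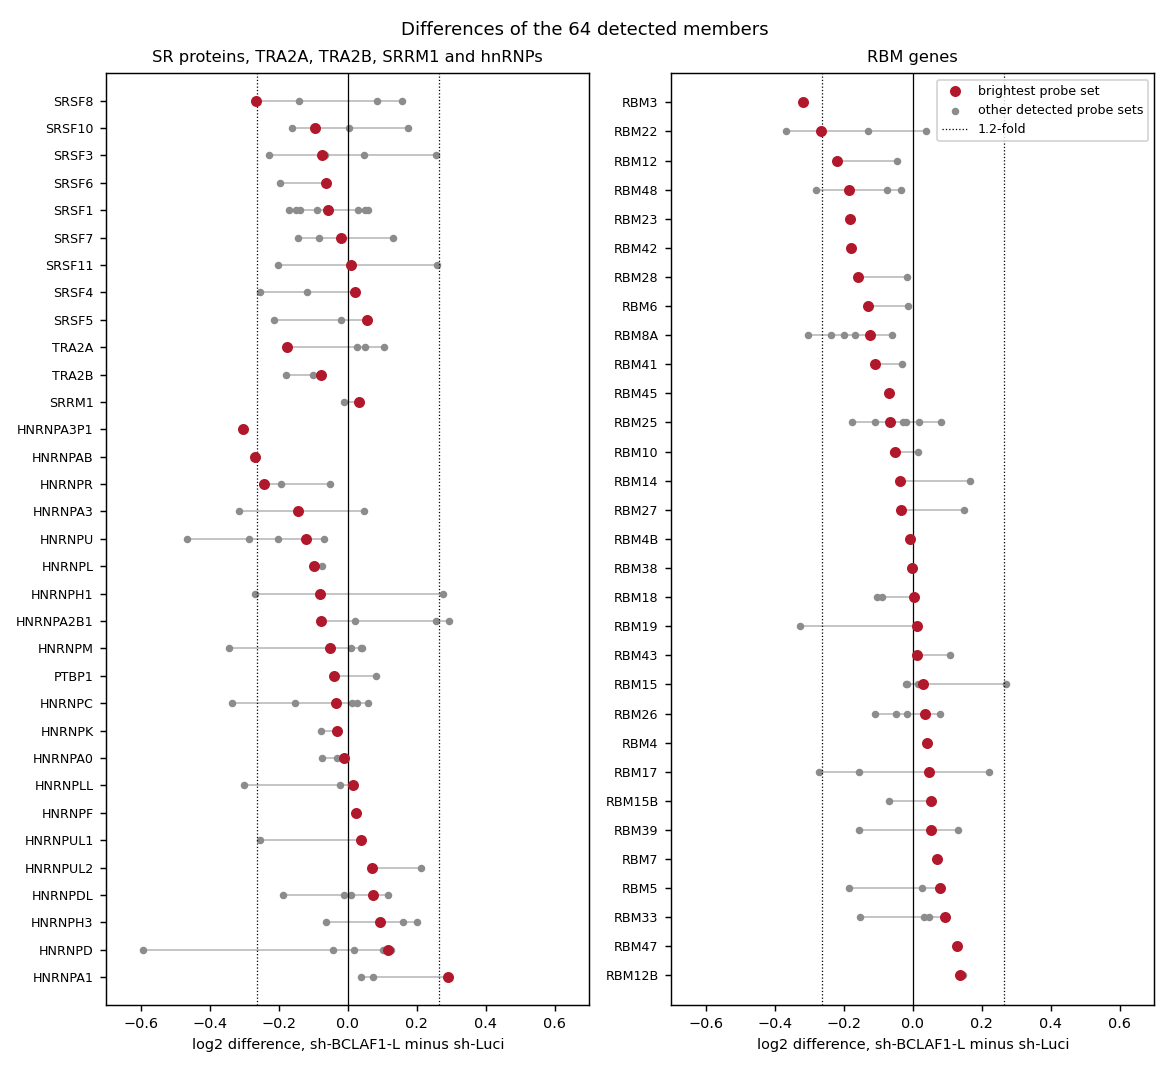
Log2 difference (x axis, sh-BCLAF1-L minus sh-Luci) of each of the 64 detected members, with the brightest probe set as a large red point, the other detected probe sets as grey points, a line over their range, and dotted lines at 1.2-fold. Of the red points, 1 lies right of the upper dotted line (HNRNPA1) and 5 left of the lower one.

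HNRNPA1, which binds splicing silencers and represses exons, was the only detected member at least 1.2-fold higher. Its brightest probe set with a single symbol read 4205 with sh-BCLAF1-L and 3439 with sh-Luci, a difference of 0.29. The other 2 differed by 0.074 and 0.039. Brighter probe sets exist that the annotation shares between HNRNPA1 and its pseudogenes: one read 11630 with sh-BCLAF1-L and 11730.2 with sh-Luci, and one shared also with HNRNPA1L2 read 10619 with sh-BCLAF1-L and 10713 with sh-Luci. Both differed by -0.01, so the 1.2-fold value rests on 1 probe set. HNRNPA1 has near-identical copies in the genome, and signal from the gene and from its copies cannot be told apart here.

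The hnRNPs with the highest differences after HNRNPA1 were HNRNPD, HNRNPH3, HNRNPDL, HNRNPUL2 and HNRNPUL1, between 0.12 and 0.037. HNRNPD, also called AUF1, binds AU-rich elements and promotes mRNA decay, and HNRNPDL is its closest relative. HNRNPD read 5727 with sh-BCLAF1-L and 5285 with sh-Luci on its brightest probe set, and HNRNPDL read 4899 with sh-BCLAF1-L and 4654 with sh-Luci. HNRNPH3 read 1322 with sh-BCLAF1-L and 1239 with sh-Luci. HNRNPUL1 read 1307 with sh-BCLAF1-L and 1274 with sh-Luci, whereas its other probe set went the other way, with a difference of -0.25. HNRNPUL2 read 428 with sh-BCLAF1-L and 407 with sh-Luci. HNRNPUL2, like HNRNPA1, was higher on each of its detected probe sets.

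At the lower end of the hnRNPs stood HNRNPAB, HNRNPR, HNRNPA3, HNRNPU and HNRNPL, together with HNRNPA3P1, a transcribed pseudogene of HNRNPA3. HNRNPAB, an RNA-binding protein of the hnRNP A/B group, read 2751 with sh-BCLAF1-L and 3315 with sh-Luci, a difference of -0.27 or 1.205-fold, on its only probe set. HNRNPR, a relative of SYNCRIP, read 3759 with sh-BCLAF1-L and 4447 with sh-Luci, a difference of -0.24, and its other 2 probe sets differed by -0.051 and -0.19. HNRNPA3P1 read 65.3 with sh-BCLAF1-L and 80.8 with sh-Luci, near the limit of detection. HNRNPA3 itself read 1510 with sh-BCLAF1-L and 1669 with sh-Luci, and its detected probe sets spread from -0.32 to 0.048. A brighter probe set that the annotation shares between HNRNPA3 and HNRNPA3P1 read 2496 with sh-BCLAF1-L and 2618 with sh-Luci, a difference of -0.069. Others so shared differed by -0.092 and -0.20.

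HNRNPU, also known as scaffold attachment factor A, binds chromatin-associated RNA. It was lower on all 5 of its detected probe sets. The 2 brightest read 4493 and 1977 with sh-BCLAF1-L, against 4889 and 2277 with sh-Luci, and the others read 349, 92.9 and 83.1 with sh-BCLAF1-L, against 425, 129 and 87.3 with sh-Luci. The differences were -0.12, -0.20, -0.29, -0.47 and -0.070, so no single probe set carried the direction, although only 2 of them reached 1.2-fold. HNRNPL, which binds CA repeats, read 2270 with sh-BCLAF1-L and 2429 with sh-Luci and was lower on both of its probe sets.

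Several abundant regulators were nearly level. HNRNPK, which binds C-rich sequence, read 4399 with sh-BCLAF1-L and 4496 with sh-Luci. HNRNPC, which covers uridine tracts, read 4991 with sh-BCLAF1-L and 5114 with sh-Luci, with its 6 detected probe sets spread from -0.33 to 0.059. PTBP1, a repressor that binds polypyrimidine tracts, read 3113 with sh-BCLAF1-L and 3198 with sh-Luci. Its second detected probe set differed by 0.081, and the 5 further ones that share a microRNA symbol differed by -0.032 to -0.26. HNRNPA2B1 differed by -0.079 on its brightest probe set, at 5308 with sh-BCLAF1-L and 5607 with sh-Luci, whereas its other 3 probe sets were higher, by up to 0.29.

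RBM genes are named for their RNA-binding motif and are not one functional family. RBM3, a cold-inducible protein that binds mRNA and favours translation, had the lowest difference of the 64 members. It read 1184 with sh-BCLAF1-L and 1476 with sh-Luci, a difference of -0.32 or 1.25-fold, and its second probe set, which was below the limit, differed by -0.16. CIRBP, the related cold-inducible gene, read 1247 with sh-BCLAF1-L and 1140 with sh-Luci on its brightest probe set, a difference of 0.13, with a range of -0.11 to 0.17 over its detected probe sets.

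RBM22, a component of the catalytic core of the spliceosome, read 698 with sh-BCLAF1-L and 840 with sh-Luci, a difference of -0.27 or 1.202-fold. The next probe sets read 506 and 368 with sh-BCLAF1-L, against 654 and 404 with sh-Luci. Those differed by -0.37 and -0.13, and the fourth, at 123 with sh-BCLAF1-L and 119.6 with sh-Luci, by 0.039. RBM22 was thus lower on 3 of 4 probe sets. With RBM22 at 1.202-fold, SRSF8 at 1.203-fold and HNRNPAB at 1.205-fold, 3 of the 5 members past 1.2-fold lay just inside that threshold, and HNRNPR, at 1.18-fold, lay just outside.

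The sequences around the start sites of the 3 protein-coding members with the lowest differences other than SRSF8 are shown for what they share and where they differ. They come from RefSeq on build GRCh38.p14 and run from 250 bases before to 50 bases after the start, with each base of a searched motif in capitals. The motifs, on both strands, were the ETS core CCGGAA, the GC box GGGCGG, the TATA box TATAAA, the CCAAT box and the core TGACGT of the cAMP response element. The RBM3 window lies at chrX:48574234-48574533 on the plus strand, that of HNRNPAB at chr5:178204283-178204582 on the plus strand and that of RBM22 at chr5:150701013-150701312 on the minus strand.
RBM3: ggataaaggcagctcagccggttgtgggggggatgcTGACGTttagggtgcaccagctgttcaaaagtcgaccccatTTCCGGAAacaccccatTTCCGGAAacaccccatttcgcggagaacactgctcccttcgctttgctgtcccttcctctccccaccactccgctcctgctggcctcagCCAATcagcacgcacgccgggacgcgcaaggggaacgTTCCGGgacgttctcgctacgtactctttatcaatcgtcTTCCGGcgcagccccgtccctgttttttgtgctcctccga
HNRNPAB: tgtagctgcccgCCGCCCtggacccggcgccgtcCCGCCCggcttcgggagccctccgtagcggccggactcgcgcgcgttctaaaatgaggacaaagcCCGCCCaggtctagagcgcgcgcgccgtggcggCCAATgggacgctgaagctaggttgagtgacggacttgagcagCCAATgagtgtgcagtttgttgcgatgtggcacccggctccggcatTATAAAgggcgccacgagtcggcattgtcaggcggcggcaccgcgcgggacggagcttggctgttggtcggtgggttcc
RBM22: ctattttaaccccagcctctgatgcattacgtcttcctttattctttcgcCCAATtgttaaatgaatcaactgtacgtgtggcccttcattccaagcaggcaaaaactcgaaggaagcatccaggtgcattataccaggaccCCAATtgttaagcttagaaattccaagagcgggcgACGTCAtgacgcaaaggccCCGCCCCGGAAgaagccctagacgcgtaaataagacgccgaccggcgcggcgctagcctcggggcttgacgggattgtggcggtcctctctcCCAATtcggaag

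Each of the 3 windows held a CCAAT box, and no other searched motif was in all of them. The RBM3 window held 6 matches to the ETS core, which counts both strands of 2 palindromic stretches, and neither a GC box nor a TATA box. HNRNPAB had 3 GC boxes, 2 CCAAT boxes and a TATA box. RBM22 had 3 CCAAT boxes, and its 1 GC box overlapped its 1 ETS core. The windows of SRSF8, which are not shown, were poorer in G and C, at 36% and 38%. Each held 1 CCAAT box and no other searched motif. The table held 78 windows of 57 of the 64 detected members. A CCAAT box was found in 51.3% of these, against 34.6% of all 35116 windows, an ETS core in 29.5% against 17.2%, a GC box in 61.5% against 45.0%, a TATA box in 10.3% against 11.5%, and TGACGT in 14.1% against 7.98%. Windows of the members were richer in G and C, with a median of 63.7% against 58.7%, and the motif shares were not adjusted for this. The array measured no promoter activity, so these are descriptions of sequence.

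Other RBM genes with low values were RBM12 at -0.22 (1007 with sh-BCLAF1-L and 1172 with sh-Luci), RBM48 at -0.18 (195 with sh-BCLAF1-L and 222 with sh-Luci), RBM23 at -0.18 (750.3 with sh-BCLAF1-L and 851 with sh-Luci) and RBM42 at -0.18 (229 with sh-BCLAF1-L and 259 with sh-Luci). RBM23 is a paralogue of RBM39, and RBM48 belongs to the minor spliceosome. RBM12 and RBM48 were lower on each detected probe set, and RBM23 and RBM42 had 1 probe set. RBM39, a partner of the 3' splice site factor U2AF, differed by 0.053, at 3354 with sh-BCLAF1-L and 3232 with sh-Luci.

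RBM8A, also called Y14, marks spliced mRNA as a core protein of the exon junction complex. Its brightest probe set read 1352 with sh-BCLAF1-L and 1474 with sh-Luci, a difference of -0.12. All 6 of its probe sets were lower, with differences of -0.059 to -0.30. Among other listed proteins of that complex and of nonsense-mediated decay, 8 of 14 genes had a probe set with a single symbol. None of these 8 reached 1.2-fold, and their median was 0.018. A list of 8 is too short for that absence to set it apart from other genes.

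The detected RBM genes with the highest differences were RBM12B at 0.14, RBM47 at 0.13, RBM33 at 0.093, RBM5 at 0.080, RBM7 at 0.069 and RBM39. RBM12B read 451 with sh-BCLAF1-L and 410 with sh-Luci, and its second detected probe set differed by 0.15. RBM5, a regulator of apoptosis gene splicing, read 847 with sh-BCLAF1-L and 801 with sh-Luci, and 1 of its 3 detected probe sets was lower, at -0.19. Its relatives RBM6 and RBM10 differed by -0.13 and -0.052. RBM33 read 487 with sh-BCLAF1-L and 456 with sh-Luci, and 1 of its 4 detected probe sets was lower, at -0.15. RBM7, of the nuclear exosome targeting complex, read 739 with sh-BCLAF1-L and 705 with sh-Luci. RBM47, a gene of epithelial cells, read 77.5 with sh-BCLAF1-L and 70.8 with sh-Luci, just above the limit. Only that 1 of the 5 RBM47 probe sets was detected, and the median over all 5 was -0.063. None of these was 1.2-fold higher. RBM20, below the limit, read 54.7 with sh-BCLAF1-L and 43.3 with sh-Luci, a difference of 0.33.

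Of the remaining detected RBM genes, the nucleolar protein RBM28 had the lowest difference, -0.16, at 885 with sh-BCLAF1-L and 987 with sh-Luci, and its other probe set differed by -0.017. RBM41 differed by -0.11, at 126 with sh-BCLAF1-L and 136 with sh-Luci. RBM15 and RBM15B, which guide the complex that methylates adenosine in mRNA, differed by 0.028 and 0.052. RBM25, a splicing factor that binds exonic enhancers, read 1331 with sh-BCLAF1-L and 1395 with sh-Luci, and RBM26 read 2120 with sh-BCLAF1-L and 2070.3 with sh-Luci. RBM38, a known p53 target, read 184.6 with sh-BCLAF1-L and 185.0 with sh-Luci. Below the limit were RBM11, RBM20, RBM24, RBM34 and RBM46, with readings of 7.77 to 54.7 with sh-BCLAF1-L and 7.08 to 43.3 with sh-Luci. RBM20, a splicing factor of heart muscle, lay nearest to it. The RBM34 probe sets that share a symbol with ARID4B were brighter and differed by 0.15 and -0.16.

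Probe sets of the same gene gave a second view of the direction. Of the 52 members with at least 2 detected probe sets, 13 were lower on all of them (25%, against 19.2% of the 6752 such genes on the array), and 4 were higher on all of them (7.69%, against 25.8%). The 13 were HNRNPA0, HNRNPK, HNRNPL, HNRNPR, HNRNPU, RBM12, RBM28, RBM41, RBM48, RBM6, RBM8A, SRSF6 and TRA2B. The 4 were HNRNPA1, HNRNPUL2, RBM12B and RBM43. The share all lower was close to the background, and the share all higher was under it. Genes with more probe sets meet either condition less easily, and the numbers of probe sets were not equalised.

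**Figure D3:**
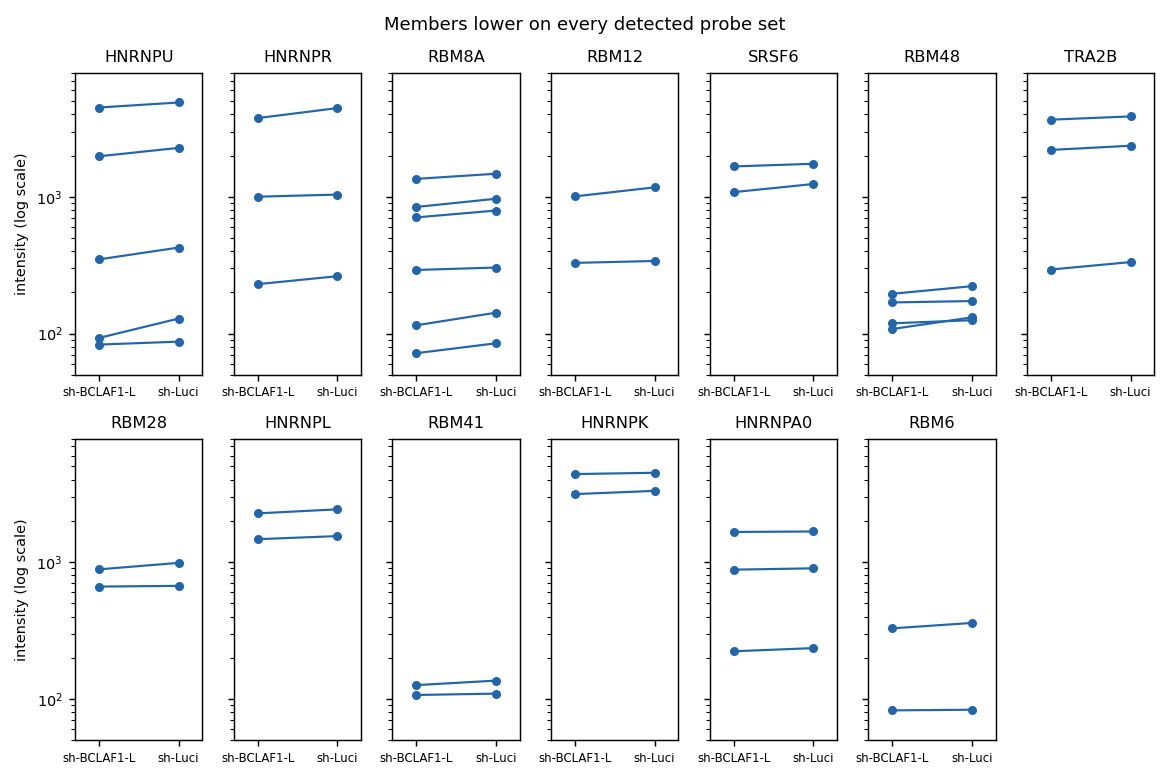
Intensity (y axis, log scale) of every detected probe set of the 13 members that were lower on all of them, with the sh-BCLAF1-L array left and the sh-Luci array right and a line for each probe set. Every line is higher at its sh-Luci end, and the steepest is a dim HNRNPU probe set at 92.9 with sh-BCLAF1-L and 129 with sh-Luci.

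Over single probe sets, 193 of 236 were detected. Of these, 18 were at least 1.2-fold lower (9.33%, against 5.05% of all 26452 detected probe sets), and they came from 16 genes. At least 1.2-fold higher were 4 (2.07%, against 7.26%), in HNRNPA1, HNRNPA2B1, HNRNPH1 and RBM15. Probe sets of a gene share its RNA, so these counts are not over independent values. The direction also went with the kind of probe set: the 66 detected ones with _s_at names had a median of -0.065 (0.0051 over all genes), the 101 with plain _at names one of -0.018 (0.021 over all genes), and the 23 with _x_at names one of 0.0082 (0.015 over all genes). The part of probe design in the members' shift was not tested.

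HNRNPD held the widest disagreement. One of its 6 detected probe sets read 1398 with sh-BCLAF1-L and 2109 with sh-Luci, a difference of -0.59 or 1.51-fold, and this was the only detected probe set of any member past 1.5-fold. The 2 brighter ones read 5727 and 5344 with sh-BCLAF1-L, against 5285 and 4903 with sh-Luci, and differed by 0.12 each. The 3 dimmer ones differed by -0.044, 0.017 and 0.10. HNRNPD is known to make several protein isoforms by alternative splicing, but the transcripts behind each probe set were not analysed here.

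HNRNPH1, which binds runs of G, came next with a range of 0.55. Its probe sets read 4182, 1481 and 379 with sh-BCLAF1-L, against 4427, 1222 and 457 with sh-Luci, and differed by -0.082, 0.28 and -0.27. RBM17, a regulator of 3' splice site choice, read 2374 with sh-BCLAF1-L and 2298 with sh-Luci on its brightest probe set. It spanned 0.49, SRSF3 spanned 0.48 and SRSF11 spanned 0.46, each with probe sets on both sides of 0. A range of at least 0.5 was found for 2 of the 52 members (3.85%), HNRNPD and HNRNPH1, against 6.65% of all genes with several detected probe sets. The median range was 0.25 for the members and 0.19 for all such genes, and the members' numbers of probe sets were not matched to those of other genes.

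**Figure D4:**
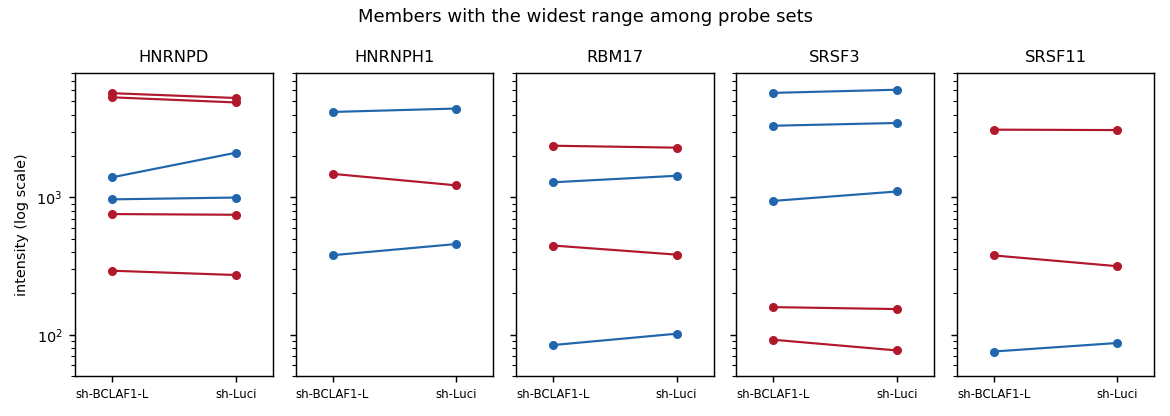
Intensity (y axis, log scale) of each detected probe set of the 5 members with the widest range of differences, with the sh-BCLAF1-L array left and the sh-Luci array right. Red lines are probe sets higher with sh-BCLAF1-L and blue lines are lower ones, the steepest being that of HNRNPD at 1398 with sh-BCLAF1-L and 2109 with sh-Luci.

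Genes that act on SR proteins and hnRNPs also had small median differences. For comparison, the 1.2-fold limit was passed on the higher side by 6.86% of the whole detected set, and on the lower side by 4.26%. With shares so low, the counts past 1.2-fold in these short lists, and in those of the next paragraph, do not set their genes apart. Of the kinases and phosphatases of SR proteins, 11 of 12 were detected, with a median of 0.0034. PPP1CA, a catalytic subunit of protein phosphatase 1, was the only one past 1.2-fold on its brightest probe set, at 705 with sh-BCLAF1-L and 891 with sh-Luci (-0.34). Its sister subunit PPP1CB differed by 0.20, and its 4 detected probe sets ran from 0.078 to 0.40. The SR protein kinases SRPK1, SRPK2 and SRPK3 differed by -0.011, 0.20 and -0.19, and the nuclear kinases CLK1, CLK2, CLK3 and CLK4 by -0.12 to 0.069. For SRPK2, the 6 detected probe sets spread from -0.42 to 0.20. The 4 measured import and export factors had a median of -0.063, and none reached 1.2-fold.

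Of 26 other SR-related proteins, all detected, the median was -0.018. THRAP3, the closest relative of BCLAF1, was 1 of these and the only one past 1.2-fold, at 1071 with sh-BCLAF1-L and 798 with sh-Luci (0.42), the highest of its 3 detected probe sets, which went down to 0.054. Of 17 detected further hnRNP-type and paraspeckle proteins, none reached 1.2-fold, with a median of -0.046. Among 17 detected other splicing regulators, with a median of 0.041, QKI read 77.4 with sh-BCLAF1-L and 58.6 with sh-Luci (0.39). That was its only detected probe set, and the sh-Luci reading lay below the limit of 63.7. FUBP1 read 1122 with sh-BCLAF1-L and 1413 with sh-Luci (-0.33), and its detected probe sets spread from -0.33 to 0.33.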

How the data were processed

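RNA of RKO cells was measured on 2 arrays, 1 per group. The authors deposited 1 intensity per probe set on a linear scale, and RMA is the method named per the submitters' processing notes. Its program, version and final scaling were not stated. Depth does not apply to arrays, and the number of arrays limits the precision.

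Of 54675 probe sets, 41097 had 1 gene symbol. Symbols were updated through Entrez identifiers in the RefSeq gene table of GRCh38.p14, which held 41043 of these. Python 3.11.15 and pandas 2.3.3 computed log2(intensity + 1), with sh-BCLAF1-L minus sh-Luci as the difference. A gene took its probe set with the highest mean log2 value and counted as detected from the 40th percentile. The procedure was tested on simulated data, with planted differences of 1.5-fold or more, set alike for all probe sets of a gene. That test did not cover 1.2-fold differences, or probe sets of a gene with unlike differences. Members and lists were chosen with earlier results of these data known. Genes named in full were SRSF10, the other SR proteins, TRA2A, TRA2B, SRRM1 and PTBP1, 6 at each end of the hnRNPs and RBM genes, the 3 brightest of each class and the 5 widest ranges. Other members were named after their values were seen, as examples. Genes of further lists were named where past 1.2-fold, and CIRBP, PPP1CB, the SRPK and CLK kinases were added after seeing values. Alternatives were the median over probe sets, leaving out _x_at or also _s_at probe sets, no filter or one at the 60th percentile, median or loess centring, a pseudocount of 32, unaltered platform symbols and probe sets of several symbols. Protein sequences were not used here.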

Additional observations from a re-analysis of the deposited data

How the results depend on the processing

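No paired analysis was possible because there was a single array of each kind, which also leaves no replicate to omit. No detected member differed by 1.5-fold in any of the 10 alternatives in which the 1.5-fold counts were repeated. The use of probe sets with several symbols was chosen after seeing the data. Members 1.2-fold or more higher numbered 0 under the median over probe sets, without _x_at probe sets and with probe sets of several symbols. They numbered 2 of 50 without _s_at and _x_at probe sets (HNRNPA2B1 and HNRNPH1, with HNRNPA1 at 0.074). Without a filter on intensity they numbered 2 of 70 (HNRNPA1 and RBM20). Over all genes kept, the shares that much higher were 4.89% under the median, 7.07% without _x_at probe sets and 6.85% with several symbols. Those shares were 7.84% without _s_at and _x_at probe sets and 10.2% without a filter. Members 1.2-fold or more lower numbered 2 of 64 under that median (HNRNPA3P1 and HNRNPAB) and under a pseudocount of 32 (HNRNPAB and RBM3). Without a filter they numbered 8 of 70. Over all genes kept, the shares that much lower were 3.21%, 2.63% and 6.06% in these 3 settings. Without _s_at and _x_at probe sets the lower members were HNRNPA3P1, HNRNPC, HNRNPU and RBM19, 4 of 50 against 4.56% of all genes kept. There, RBM3 and HNRNPAB had no detected probe set. The median of the SR proteins was 0.047 without _s_at and _x_at probe sets, where SRSF5 and SRSF6 had no probe set left. In that setting the median of the 50 remaining members was -0.0073, against 0.021 over all detected genes. After subtraction of the median difference of all probe sets, 0.026, the median of all members was -0.060, against -0.0070 over all detected genes. Such a constant moves both medians alike and leaves the distance between them unchanged. Of the 6 members past 1.2-fold, 3 turned round: SRSF8 was 0.085 without _x_at or without _s_at and _x_at probe sets, RBM22 was 0.039 without _s_at and _x_at probe sets, and HNRNPA1 was -0.012 with probe sets of several symbols. Of 623 member differences under the alternatives, 599 moved by less than the within-gene SD and 24 by more, and 44 changed sign. The filters and the platform symbols kept each member's brightest probe set, so those values could not move. All 24 came from alternatives that changed the probe sets used. They were 7 of 64 under the median over probe sets and 13 of 50 without _s_at and _x_at probe sets. A further 2 of 63 arose without _x_at probe sets, and 2 of 64 with probe sets of several symbols. The cause of these changes was not tested.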
